A study of Mus musculus with 8 samples.

Results

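The genes described are 10 imprinted genes, Grb10, Gnas, Nnat, Plagl1, Igf2r, Meg3, Dlk1, Zrsr1, Impact and Slc38a4, out of 24129 annotated genes on the chromosomes held in the methylation table. They were taken by name, and each was read as its mm10 RefSeq span extended by 10 kb on each side. Liver DNA of male C57BL/6J mice, an inbred strain, of the labelled genotype WT, was measured by whole-genome bisulfite sequencing, which reads an unconverted cytosine as methylated. All mice were bought at 8 weeks of age and fed for 28 weeks. The 4 libraries titled NASH (nonalcoholic steatohepatitis) come from mice on a diet rich in fat, cholesterol and fructose, and the 4 libraries titled WT, called ND here, from mice on a normal diet. In the labels, titles and treatment entries contradict each other (WT titles carry the treatment NASH), and the libraries were grouped by title, which the column names of the table match. Every direction below would reverse if the treatment entries were right. The labels do not say that libraries of a group are separate mice, so p-values measure only the spread between these libraries.

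In an imprinted gene, the copy from the mother and the copy from the father are used unequally. In many such genes, though not in all, the difference is held by DNA methylation laid down in the egg or the sperm. A control region that is methylated on one parental copy and bare on the other reads near 50% in a bulk measurement, and ordinary CpG islands read near 0. Most of the control regions known in the mouse carry their methylation on the maternal copy. The table gives one percentage per cytosine and does not separate the parental copies, so no allele was measured here.

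The 300-base promoters shown first are those whose levels set the frame for the maps that follow, printed from RefSeq (GRCm38.p6, the patch release of mm10) 5′ to 3′ in the direction of transcription, with each CpG in capitals. They cover 250 bases before and 50 bases from the transcript's start. Grb10, which encodes an adaptor that dampens insulin receptor signalling, lies on the minus strand of chromosome 11, with its main start at chr11:12037371-12037670 and an internal start at chr11:12027922-12028221. The Gnas promoters, on the plus strand, are that of the internal transcript at chr2:174327499-174327798 and that of the main transcript, which encodes the alpha subunit of the stimulatory G protein, at chr2:174329756-174330055. Plagl1, a zinc-finger transcription factor, starts at chr10:13090582-13090881 on the plus strand. The middle of the 3 annotated starts of Slc38a4, an amino acid transporter abundant in liver, is at chr15:97031164-97031463 on the minus strand.
Grb10 main start: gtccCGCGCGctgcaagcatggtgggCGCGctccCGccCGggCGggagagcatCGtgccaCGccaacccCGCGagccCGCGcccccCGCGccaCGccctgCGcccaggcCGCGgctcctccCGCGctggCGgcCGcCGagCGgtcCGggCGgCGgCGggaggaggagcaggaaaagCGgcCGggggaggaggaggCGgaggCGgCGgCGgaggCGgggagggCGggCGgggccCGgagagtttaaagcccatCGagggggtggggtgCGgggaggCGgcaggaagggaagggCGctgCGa
Grb10 internal start: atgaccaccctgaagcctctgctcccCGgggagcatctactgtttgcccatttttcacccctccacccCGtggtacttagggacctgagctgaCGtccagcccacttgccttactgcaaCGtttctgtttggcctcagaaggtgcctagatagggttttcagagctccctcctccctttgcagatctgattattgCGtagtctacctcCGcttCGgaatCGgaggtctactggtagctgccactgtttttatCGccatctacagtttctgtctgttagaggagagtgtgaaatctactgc
Gnas internal transcript: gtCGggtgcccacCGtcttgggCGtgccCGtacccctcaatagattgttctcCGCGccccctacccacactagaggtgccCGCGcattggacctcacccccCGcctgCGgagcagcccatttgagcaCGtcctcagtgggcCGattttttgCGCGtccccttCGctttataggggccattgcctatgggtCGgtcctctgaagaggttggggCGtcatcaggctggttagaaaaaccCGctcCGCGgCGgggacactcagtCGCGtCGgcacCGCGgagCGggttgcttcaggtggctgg
Gnas main transcript: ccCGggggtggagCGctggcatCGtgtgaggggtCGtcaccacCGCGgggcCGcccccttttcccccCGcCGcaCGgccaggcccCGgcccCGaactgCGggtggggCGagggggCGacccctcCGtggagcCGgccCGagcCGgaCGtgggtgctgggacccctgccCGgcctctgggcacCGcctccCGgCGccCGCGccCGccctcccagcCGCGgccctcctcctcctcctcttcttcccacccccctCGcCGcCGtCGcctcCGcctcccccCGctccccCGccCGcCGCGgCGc
Plagl1 start: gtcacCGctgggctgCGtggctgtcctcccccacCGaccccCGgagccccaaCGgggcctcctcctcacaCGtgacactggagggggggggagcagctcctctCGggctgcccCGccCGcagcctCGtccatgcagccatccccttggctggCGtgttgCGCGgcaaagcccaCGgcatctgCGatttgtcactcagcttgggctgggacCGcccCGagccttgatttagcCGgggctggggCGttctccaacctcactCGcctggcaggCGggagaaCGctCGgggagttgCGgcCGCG
Slc38a4 middle start: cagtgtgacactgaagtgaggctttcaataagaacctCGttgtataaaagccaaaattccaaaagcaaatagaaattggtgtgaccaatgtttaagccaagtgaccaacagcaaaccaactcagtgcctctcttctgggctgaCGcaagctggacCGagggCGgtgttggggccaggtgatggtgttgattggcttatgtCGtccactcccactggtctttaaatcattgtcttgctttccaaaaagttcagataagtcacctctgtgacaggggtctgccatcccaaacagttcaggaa

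The 2 promoters with the most CpGs read near 0 and the others did not. The Grb10 main start, with 45 CpGs, was at 3.06% ± 5.02 in NASH and 1.11% ± 0.15 in ND (SD, n = 4 libraries, as for every ± below), and the Gnas main start, with 40 CpGs, at 1.80% ± 2.82 and 0.42% ± 0.59. The Gnas internal transcript (27 CpGs) was at 53.1% ± 5.68 and 63.1% ± 13.6, and the Plagl1 start (26 CpGs) at 51.1% ± 18.6 and 50.3% ± 21.2. So within Gnas a promoter near 50% and a promoter near 0 lie about 2 kb apart. At the main starts, 71 of 90 rows in Grb10 and 61 of 80 in Gnas were at 0 in all 8 libraries. A 0 may be a position without reads. The Grb10 internal start, with only 9 CpGs, was at 59.3% ± 11.3 and 58.2% ± 6.17. The letters TGCCGC, the core bound by ZFP57, a zinc-finger protein that protects imprinted methylation, were found on either strand in 4 of the 16 member promoters (25%; Grb10 main start, Nnat, Plagl1 and a Meg3 start) and in 2666 of 22672 promoters of that length (11.8%). The letters hold a CpG, and the member promoters have a median of 14.5 CpGs against 7.0 in all promoters. Among the 16, the Gnas promoters at 174327499 and 174327518 overlap. None of the 13 member promoters that could be tested passed the test between groups (limma, adjusted over 17400 promoters), against 0.0115% of all promoters tested.

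The table reports each strand of a CpG in its own row. A step is 1000 bases, and a step with 40 or more rows is called dense. Dense steps were near 50%, here a mean over all 8 libraries of 35% to 65%, in 12777 of 95425 cases over the whole table (13.4%). In the 10 genes it was 34 of 92 (37.0%). Among steps with 80 or more rows the share was 23 of 32 (71.9%) in the 10 genes and 1414 of 16481 (8.58%) in all. The 32 include Dlk1 steps of 200 and 84 rows. These levels are a description, since the band itself uses them. Table positions are 1 higher than RefSeq's 1-based coordinates, and steps and stretches below are given in table positions.

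Adjoining near-50% dense steps were joined into 16 stretches, which lie in 8 of the 10 genes. There were none in Meg3 or Dlk1. The 15 stretches that touch their gene itself are described below. Of the 16 stretches, 8 overlapped an annotated 300-base promoter. At the lower edge, a Slc38a4 step (97015000) at 42.3% was inside the band and another (97050000) at 34.2% was just outside. At the upper edge, a Nnat step (157560000) at 64.5% was inside and the Grb10 step 12026000 at 70.7% was outside. The within-group SD of a stretch had a median of 6.61 points in the 10 genes and 5.97 points over all 11675 stretches of the table. These sets differ in size, with a median of 202 rows per stretch in the 10 genes and 50 over all. Among stretches with 80 or more rows the median SD was 6.88 points in the 10 genes and 7.50 over all.

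**Figure D1:**
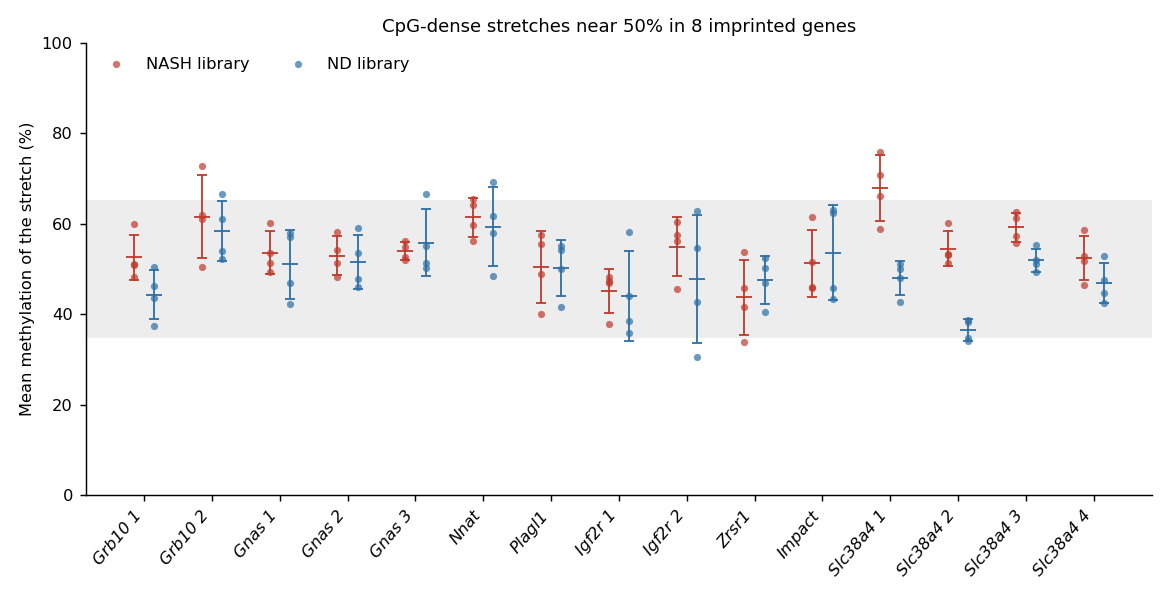
Mean methylation level in percent of each near-50% stretch that touches its imprinted gene, with 1 point per library for NASH and ND, bars for the group mean ± SD, a grey band from 35% to 65%, and stretches numbered along the chromosome. Across the 11 stretches outside Slc38a4 the groups overlap, whereas in 3 of the 4 Slc38a4 stretches every NASH library lies above every ND library.

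Outside Slc38a4, none of the 11 stretches that touch their gene passed the test between the groups (limma on the mean level in percent, Benjamini-Hochberg over the 11675 stretches, threshold 0.05). Their group means lay between 43.7% and 61.6% in NASH and between 44.1% and 59.3% in ND. The difference, NASH minus ND, ran from -3.86 to 8.20 points with a median of 1.37, and the groups overlapped in all 11. Of all stretches tested 1.81% passed, and 12% had groups that did not overlap. The standard errors of the 11 differences, 3.78 to 6.69 points, set the size that could have been seen, so these tests do not show that the groups are alike. Shifts in the mix of cell types and changes within cells cannot be told apart in bulk liver.

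Gnas holds 3 of these stretches on chromosome 2 (gene 174284320-174346744). The locus is known for several starts with opposite parental use, among them the maternally used Nesp transcript and the paternally used XL and exon 1A transcripts. The stretch at the gene's first start (chr2:174283000-174287999, 453 rows) read 60.1%, 53.6%, 49.4% and 51.3% in the NASH libraries and 46.9%, 42.3%, 57.1% and 57.8% in ND. No group stands above the other there (difference 2.55 points, SE 4.33, limma adjusted p = 0.826). The stretch from 174295000 to 174300999, the longest of all 16 with 668 rows, was at 53.0% ± 4.23 and 51.6% ± 5.94 (adjusted p = 0.899). The stretch over the internal transcript printed above (174327000 to 174328999, 304 rows) was at 54.0% ± 1.99 and 55.8% ± 7.43 (adjusted p = 0.868). Its ND spread came from 1 library at 66.5%, with the other 3 from 50.2% to 55.1%. The level then dropped within 2 steps. Step 174329000 was at 15.8% and 15.3%, and step 174330000, over the main start, at 2.86% and 1.53%. In step 174330000, 193 of 246 rows were at 0 in all 8 libraries. The largest difference of a single step in Gnas was at 174285000 (126 rows), with NASH at 62.9% and ND at 48.0%, every NASH library above every ND library and an adjusted p of 0.236 over all steps. Among the 50 Gnas steps with 20 or more rows, NASH lay wholly above ND in 1 and wholly below in 2. Over all such steps of the table the shares were 3.79% and 4.49%.

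**Figure D2:**
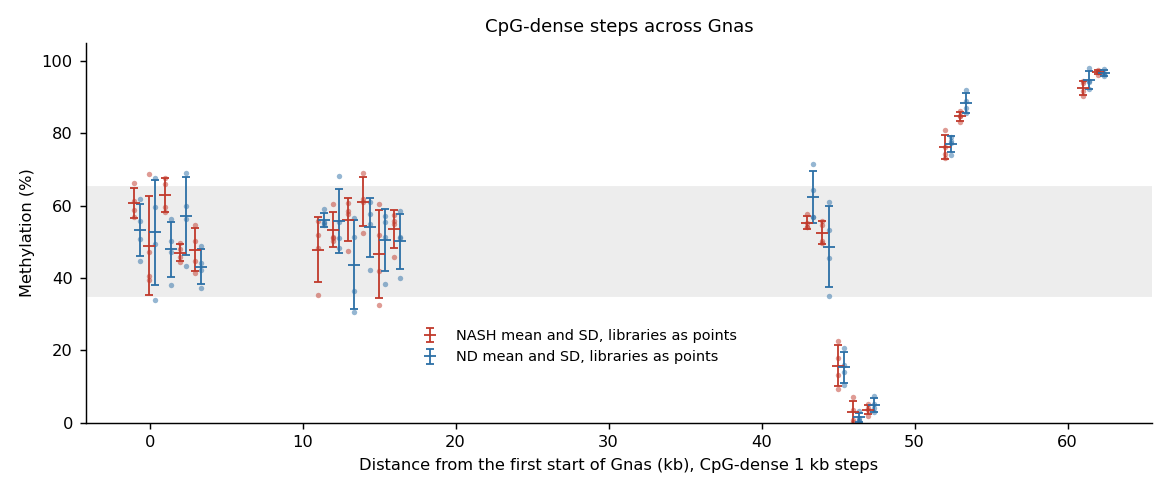
Methylation level in percent of the dense steps of Gnas by distance in kb from the gene's first start, as group means ± SD for NASH and ND with the libraries as points and a grey band from 35% to 65%. Both groups show the same 3 plateaus near 50%, then levels of 2.86% and 1.53% over the main start and over 90% at the far end.

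At Plagl1 (chr10:13090832-13131694, plus strand) the only stretch covers the shared start with Hymai, a noncoding RNA (13090000 to 13091999, 224 rows). NASH libraries were at 55.6%, 39.95%, 57.6% and 48.9%, and ND libraries at 54.2%, 55.0%, 41.5% and 50.1%. The group means of 50.5% and 50.2% differed by 0.29 points (SE 4.70), less than the spread between libraries. Nnat (chr2:157560078-157562525), a small membrane proteolipid whose gene sits inside Blcap, had 1 stretch over its start (200 rows) at 61.4% ± 4.31 and 59.3% ± 8.70. Zrsr1 (chr11:22972005-22976496), an intronless splicing-factor gene inside Commd1, was at 43.7% ± 8.23 and 47.6% ± 5.20 over 226 rows at its start.

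Impact has its stretch within the gene body, and Igf2r holds one inside the gene and one at its promoter. Impact (chr18:12954690-12992950), a regulator of the amino acid sensing kinase GCN2, had 1 stretch well inside the gene (12972000 to 12974999, 292 rows) at 51.3% ± 7.38 and 53.6% ± 10.5. Igf2r (chr17:12682406-12769706, minus strand), the receptor that clears IGF2, had one over the start of Airn, the antisense noncoding RNA that silences it in cis (12741000 to 12742999, 204 rows), at 45.1% ± 4.90 and 44.1% ± 9.93. A second stretch covered the Igf2r promoter itself (12769000 to 12769999, 218 rows). It was at 54.9% ± 6.46 in NASH and at 47.7% ± 14.1 in ND, where libraries ran from 30.5% to 62.9%. Both the Airn and the Igf2r promoters were thus near 50% in the liver of either group.

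Grb10 (chr11:11930499-12037428) was mapped step by step. It is expressed from the maternal copy in most tissues through its main start and from the paternal copy in neurons through an internal CpG island, which is known to carry maternal methylation. Of 115 steps with 6 or more rows, 86 were over 65%, 21 between 35% and 65%, 6 between 10% and 35%, and 2 at 10% or less. The 2 lowest are the steps at the main start, 12036000 (156 rows) at 4.89% in NASH and 4.27% in ND, and 12037000 (274 rows) at 4.29% and 3.16%. The internal island lies 11 to 12 kb downstream. Its near-50% step, 12025000 (124 rows), was at 61.9%, 61.0%, 72.9% and 50.5% in NASH and at 66.5%, 61.1%, 54.1% and 52.1% in ND. The groups overlap throughout (difference 3.15 points, SE 5.10, adjusted p = 0.814 over all stretches). The adjoining step 12026000 (202 rows) was at 76.2% ± 8.96 and 65.3% ± 10.9. In both groups the main start of Grb10 thus read near 0 and the internal island well above it. Rows at 0 in all 8 libraries made up 79 of 156 in step 12036000 and 163 of 274 in step 12037000. Such a 0 may be a position without reads.

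**Figure D3:**
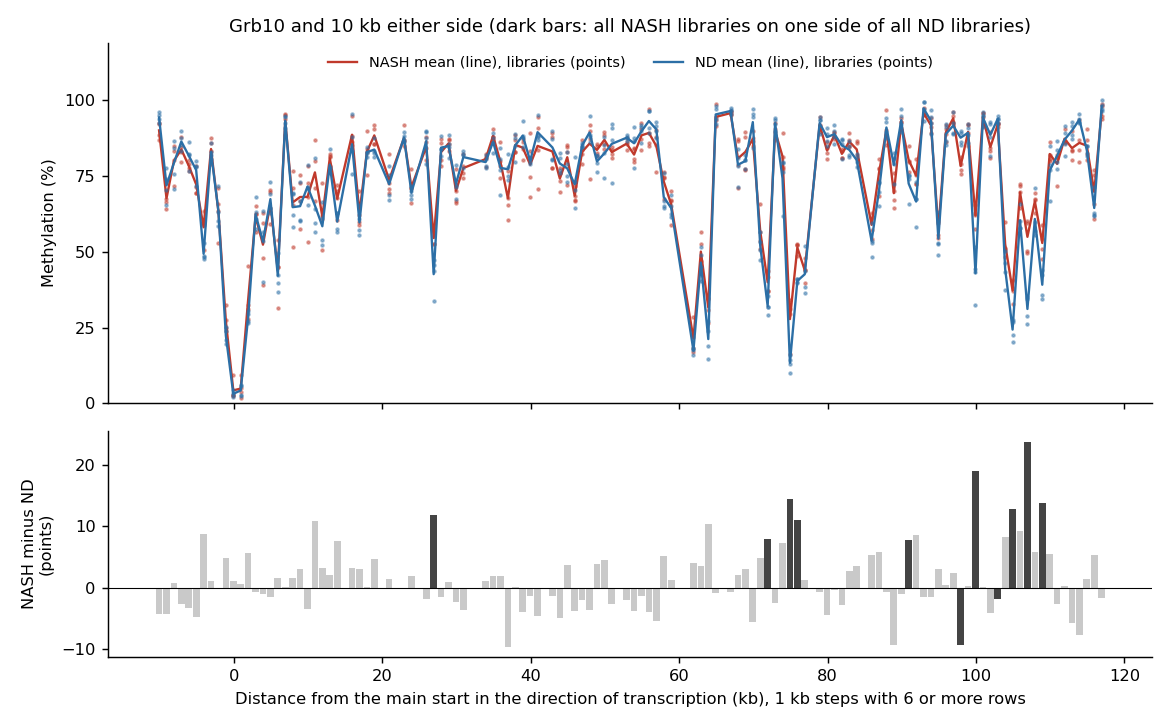
Methylation level in percent of each 1 kb step of Grb10 with 6 or more rows by distance in kb from the main start, as group means for NASH and ND, with the difference below. Both groups fall to under 5% at the main start, and the widest gap, 23.8 points, is at the 3′ end of the gene.

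Over the whole extended span Grb10 rose in NASH. The NASH libraries were at 61.1%, 59.5%, 61.0% and 61.9% and the ND libraries at 58.4%, 57.5%, 58.0% and 58.3% (2644 rows). Every NASH library was above every ND library, by 2.82 points on average (SE 0.565, limma adjusted p = 0.0132 over 23760 spans). Of all spans 9.22% passed the test, 5.01% higher in NASH, and in 7.9% NASH lay wholly above ND. The call was lost with no 10 kb extension (2.86 points, adjusted p = 0.0785) and with every 0 in the table left out (1.13 points, adjusted p = 0.444). By level, steps from 10% to 35% were higher in NASH in 6 of 6. Steps from 35% to 65% were higher in 18 of 21, with a median of 5.30 points. Steps over 65% were higher in 39 of 86, with a median of -0.74. Adjoining steps are not independent, and the share over all steps of the table at these levels was not computed. Of all near-50% stretches, 53.3% were higher in NASH, with a median difference of 0.53 points. Those stretches are no like background, since they join steps of 40 or more rows at 35% to 65%. The steps counted here need only 6 rows.

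The widest gap was at the 3′ end, which is the low-coordinate end of this minus-strand gene. Step 11930000 (36 rows), about 107 kb downstream of the main start, was at 59.6%, 60.1%, 49.7% and 50.4% in NASH and at 28.8%, 26.3%, 34.4% and 35.1% in ND. The lowest NASH library is above the highest ND library by over 10 points, and the mean difference was 23.8 points (SE 3.79). It did not pass over all steps (adjusted p = 0.0780), where 0 of 1597844 steps passed in limma, against 169548 at an unadjusted p under 0.05 and 14 on the logit scale. It passed among the 548233 steps with 20 or more rows (adjusted p = 0.0391), a set in which 0.2% of steps were called higher in NASH. Leaving out any 1 library kept the difference between 22.1 and 25.6 points, with adjusted p from 0.117 to 0.203 over all steps.

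Of the 4 next widest gaps in Grb10, 3 were near that end too. Step 11937000 was at 62.0% ± 3.40 against 43.0% ± 7.88, step 11928000 at 52.9% ± 4.72 against 39.1% ± 4.67 and step 11932000 at 37.2% ± 3.28 against 24.3% ± 3.45. In step 11962000, a low stretch of the gene body, the levels were 27.8% ± 7.89 and 13.4% ± 2.46. In these 4 steps too every NASH library was above every ND library, with adjusted p from 0.136 to 0.202, so none passed. The step between them that counts as near-50% and dense (11933000, 42 rows) was at 52.6% ± 5.06 and 44.4% ± 5.45, with groups that overlap (adjusted p = 0.293). The largest differences downward were smaller and lay in highly methylated steps. Step 12000000 was at 67.7% in NASH and 77.2% in ND, step 11939000 at 78.3% and 87.7%, step 11948000 at 69.4% and 78.7%, step 11923000 at 86.0% and 93.7%, and step 11924000 at 84.2% and 89.97%. Only in step 11939000 did the groups not overlap. Of all 115 mapped Grb10 steps, NASH lay wholly above ND in 9 and wholly below in 2, and no share over the whole table was computed for these. Of the 36 Grb10 steps with 20 or more rows, NASH lay wholly above ND in 6 and wholly below in 0, against 3.79% and 4.49% of all such steps.

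The 3 genes whose spans moved most like that of Grb10 over the 8 libraries, by the root mean square difference of mean-centred levels, were Klb (0.24 points), a coreceptor of the hormone FGF21, Aldh8a1 (0.25 points), an aldehyde dehydrogenase, and Ece1 (0.26 points), the endothelin-converting enzyme. Klb was at 66.3% ± 0.867 in NASH and 63.7% ± 0.267 in ND. Likeness here was measured only over these libraries.

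Slc38a4 (chr15:96994816-97055956, minus strand) showed the largest span difference of the 8 genes that could be tested. Its extended span was at 68.1%, 65.8%, 67.3% and 70.5% in NASH and at 61.2%, 59.9%, 60.3% and 61.9% in ND (2584 rows). The groups are far from overlapping, and the span rose by 7.12 points (SE 0.911, limma adjusted p = 0.00142). This call held under every alternative that was run, with 4.06 points when every 0 in the table was left out. Within the gene, 4 stretches were near 50%, of which 2 were called higher in NASH, against 1.34% of all stretches, and 3 had NASH wholly above ND, against 7.78%. The stretch 97015000 to 97016999 (92 rows, 3361 bases past the nearest annotated start) was at 51.4%, 53.0%, 53.3% and 60.2% in NASH and 38.8%, 38.3%, 34.8% and 34.0% in ND. It rose by 18.0 points (SE 2.96, adjusted p = 0.0302). The stretch at 97003000 (44 rows) was at 70.7%, 66.1%, 58.7% and 75.9% against 49.9%, 48.1%, 42.7% and 51.1%, and rose by 19.9 points (SE 4.04, adjusted p = 0.0482). Both calls were lost when any 1 of the 8 libraries was left out, with differences of 16.1 to 19.1 points (adjusted p 0.0554 to 0.0795) and 17.2 to 23.0 points (0.0587 to 0.112).

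The stretches nearer to the first start of Slc38a4 differed less. At 97049000 (42 rows) NASH was at 59.2% ± 3.20 and ND at 51.9% ± 2.50, with no overlap but an adjusted p of 0.216. The stretch over the first start itself (97054000 to 97055999, 198 rows), was at 52.4% ± 4.93 and 46.9% ± 4.44, with groups that overlap (adjusted p = 0.466).

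Most of the difference in Slc38a4 lay in its body at low and middle levels. All 9 steps from 10% to 35% and all 26 steps from 35% to 65% had the higher mean in NASH. Their medians were 16.8 and 12.9 points, while the 46 steps over 65% had a median of 0.02 points. Here too adjoining steps are not independent, and the share over all steps at these levels was not computed. Of all near-50% stretches, 53.3% were higher in NASH, with a median difference of 0.53 points. As for Grb10, those stretches join steps of 40 or more rows, while the steps counted here need only 6. Of the 81 mapped steps, NASH lay wholly above ND in 28 and wholly below in 2, and no share over the whole table was computed for these. Of 69 steps with 20 or more rows, NASH lay wholly above ND in 26 and wholly below in 0, against 3.79% and 4.49% of all such steps. In that set 3 steps were called, all higher in NASH, against 0.2% of all such steps. Step 97019000 (60 rows) was at 41.8% ± 5.96 against 20.3% ± 5.33, step 97026000 (26 rows) at 55.4% ± 5.62 against 34.4% ± 2.05, and step 97031000 (32 rows) at 43.7% ± 4.95 against 24.1% ± 1.55. The adjusted p-values were 0.0452, 0.0413 and 0.0361. Over all steps with 6 or more rows these 3 did not pass (0.0881, 0.0843 and 0.0793), and with any 1 library left out their adjusted p ran from 0.113 to 0.223. Step 97031000 holds the middle start printed above, where the 300-base promoter, with only 5 CpGs, was at 51.6%, 59.2%, 38.9% and 51.4% in NASH and 25.2%, 26.9%, 31.6% and 18.1% in ND. NASH lay wholly above ND there, as in 2.63% of all promoters, but the promoter on its own did not pass (adjusted p = 0.369 over all promoters). At the Slc38a4 promoter at 97020310, NASH (46.3% ± 9.54) also lay wholly above ND (24.6% ± 7.49, limma adjusted p = 0.453). At the first start (97055907) the groups overlapped, with 65.2% ± 8.06 in NASH and 56.5% ± 6.08 in ND (0.721).

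**Figure D4:**
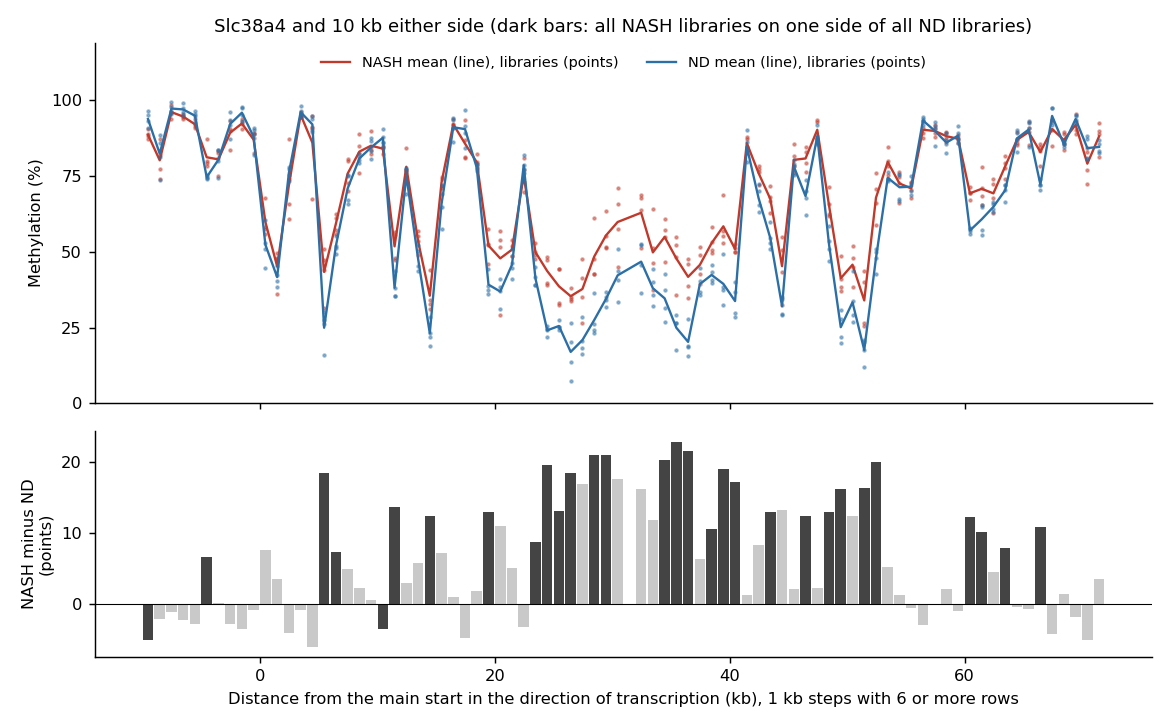
Methylation level in percent of each 1 kb step of Slc38a4 with 6 or more rows by distance in kb from the first start, as group means for NASH and ND, with the difference below. The NASH mean is the higher one in every step under 65%, and the median difference of the 46 steps over 65% is 0.02 points.

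Markers of the cell types of liver were read in the same libraries, as gene spans without extension. The 10 hepatocyte markers, such as Alb and Hnf4a, were all called higher in NASH, and their mean level was 47.1% to 52.7% in NASH and 36.2% to 37.9% in ND. Of all such spans 4.29% were called higher and 2.34% lower. Of the markers of other cells, macrophages had 0 of 8 higher and 1 lower (69.7% to 70.7% against 71.8% to 74.1%), neutrophils 0 of 7 and 3 (68.9% to 69.6% against 69.9% to 72.4%), stellate cells 0 of 7 and 1 (64.5% to 66.3% against 66.2% to 67.0%), and lymphocytes 0 of 6 and 1 (75.7% to 78.8% against 79.8% to 82.1%). Endothelial markers (54.0% to 54.4% against 54.2% to 55.2%) and cholangiocyte markers (55.5% to 59.1% against 57.7% to 59.5%) had 0 of 5 called each. No marker was at 0. The hepatocyte markers thus moved in the same direction as Slc38a4 and Grb10, and their part in those results was not tested. The mean of all rows of the table was 71.5% ± 0.584 in NASH and 71.9% ± 0.515 in ND (exact two-sided permutation test over 70 assignments, p = 0.429, where the smallest possible is 0.0286).

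None of the other 6 measured genes passed as a span. The differences were 0.23 points for Gnas (57.2% ± 1.32 against 57.0% ± 1.58, adjusted p = 0.9001), 2.20 for Nnat (53.7% ± 0.504 against 51.5% ± 1.59, 0.0950), 0.50 for Plagl1 (76.1% ± 2.32 against 75.6% ± 0.928, 0.808) and 0.81 for Igf2r (77.8% ± 1.46 against 77.0% ± 0.591, 0.534). For Zrsr1 the difference was -0.97 (51.8% ± 3.02 against 52.8% ± 1.72, 0.712) and for Impact -1.45 (72.0% ± 1.69 against 73.4% ± 1.97, 0.447). The median over all spans was -0.39 points. Without ND replicate 3 the Nnat span passed (2.82 points, adjusted p = 0.0355). A single step in the Nnat flank (157550000, 26 rows) was called higher in NASH among steps with 20 or more rows, at 62.2% ± 3.21 against 43.9% ± 3.44 (adjusted p = 0.0477). The largest differences of single steps were 29.1 points in Nnat (157570000, 12 rows), 21.2 in Zrsr1 (22964000, 12 rows), 12.6 in Impact (12974000, 100 rows), -13.1 in Plagl1 (13119000, 16 rows) and -19.6 in Igf2r (12755000, 16 rows). Among all steps with 6 or more rows, none of them passed, though the Nnat step did without the zeros whose neighbours have a median of 50 or more (adjusted p = 0.0440) and the Igf2r step without any zero (0.0254). In the 59 Igf2r steps with 20 or more rows, NASH lay wholly above ND in 2 and wholly below in 6. These counts were 0 and 2 of 24 in Impact, 1 and 1 of 33 in Plagl1, 1 and 0 of 15 in Nnat, and 0 and 0 of 10 in Zrsr1. Shares over all such steps were 3.79% and 4.49%.

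Dlk1 and Meg3 could not be read. Dlk1 encodes a Notch-related membrane protein used from the paternal copy, and Meg3 is a noncoding RNA used from the maternal copy, in the same cluster on chromosome 12. Of the 1412 rows in the extended span of Meg3 (gene at chr12:109540996-109571729), 98.7% were at 0 in all 8 libraries. Of the 1146 rows in the extended span of Dlk1 (gene at chr12:109452485-109463336), it was 99.3%. The library means were 0.142% to 0.921% for Meg3 in NASH and 0% to 0.637% in ND, and 0% to 0.524% and 0% to 0.262% for Dlk1. In Meg3 the dense step nearest to 50% was 109549000 (74 rows) at 2.36% in NASH, and all 8 dense steps of Dlk1 were at 0 in every library. Both genes sit in a block of 314 kb (109374449 to 109688768, 8096 rows, 99.0% of them at 0 in all libraries) that also holds Rtl1 and Rian, with flanks at 76.5% and 84.4%. Over all placed chromosomes 6.61% of rows are at 0 in all libraries. The same spacing of positions recurs on an unplaced contig of the table, for 8093 of the 8096 rows, and 98.0% of that contig's rows are at 0 in all libraries as well. These zeros are therefore given as listed values and not as unmethylated DNA, and neither gene was tested.

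**Figure D5:**
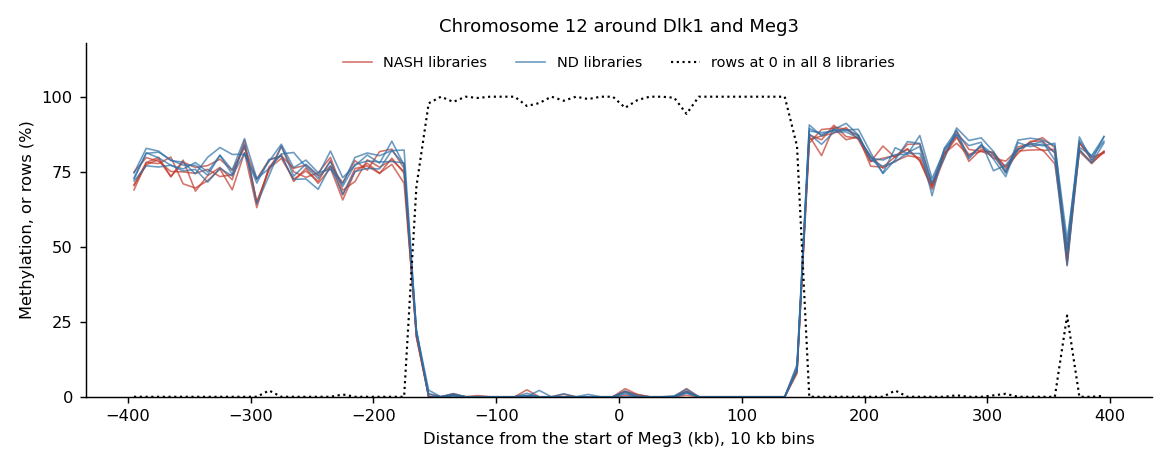
Mean methylation level in percent in 10 kb bins around the Meg3 start, by distance in kb, with 1 line per library for NASH and ND and a dotted line for the share of rows at 0 in all libraries. All 8 lines fall together to near 0 across the 314 kb block that holds Dlk1 and Meg3 and return to 76.5% and 84.4% on either side.

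A list of 26 other imprinted genes gave 22 spans that could be tested. Of these, 1 was called higher in NASH, Jade1, a chromatin-associated scaffold protein, at 58.4% ± 0.177 against 55.4% ± 0.242, and 1 lower, Dcn, the matrix proteoglycan decorin, at 70.7% ± 1.23 against 73.2% ± 0.586. Over all spans 5.01% were called higher and 4.21% lower. The median difference of the 22 was -0.32 points. Of the listed genes, 15 overlapped a near-50% stretch with their extended span, and the share over all genes was not computed. These stretches are not all separate. Blcap, Commd1 and Airn overlap the regions of Nnat, Zrsr1 and Igf2r described above, Mcts2 lies inside H13 and Peg13 inside Trappc9. Slc38a1 and Slc38a2, transporters next to Slc38a4 on chromosome 15, were at 77.3% ± 0.456 against 77.7% ± 0.596 and at 48.7% ± 0.762 against 48.9% ± 0.792, and neither passed the test. Ddc, the neighbour of Grb10 on the side of its 3′ end, was at 69.9% ± 0.455 against 68.4% ± 0.561, a difference of 1.51 points. Cobl, the listed gene on the other side of Grb10, went the other way, at 77.7% ± 0.736 against 78.6% ± 0.166, a difference of -0.92 points. In both the groups do not overlap, as in 17.2% of all spans, and neither passed.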

How the data were processed

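Whole-genome bisulfite sequencing of 8 liver DNA libraries (4 NASH, 4 ND) was deposited by the authors as one table of methylation in percent per cytosine, with no read counts. The depth behind a value is therefore unknown, no counting interval can be given, and a 0 may be a position without reads. Reads were checked with FastQC and the build is mm10, per the submitters' processing notes. For the aligner and the caller of methylation, the sources used here give no name. The table holds 30729668 rows on 15 placed chromosomes (chromosome 5 up to position 117098872) and 326824 rows on 85 contigs, and 1 incomplete line was left out. Between 12.3% and 13.1% of rows are 0 in each library. The shares were 12.30%, 12.96%, 12.69% and 12.42% in NASH and 12.75%, 13.05%, 13.14% and 13.09% in ND. The part of these zeros in the differences between groups was not tested.

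Mean levels of 1 kb steps (6 or more rows), gene spans extended by 10 kb (20 or more rows), near-50% stretches and promoters were fitted over the whole table with limma 3.58.1 in R 4.3.3 (eBayes with a mean trend, NASH minus ND, Benjamini-Hochberg, threshold 0.05). Features at 0 in all libraries and spans with 90% or more of such rows were not tested. The fits were tested on data drawn with known differences before use. Positions were placed by matching promoter CpGs to RefSeq, where all 290334 matched at a shift of 1 base. The genes named are the 10 members with every near-50% stretch (1 outside its gene is counted but not reported here), the 5 Grb10 steps of largest size in each direction, the largest step of each other member, a list of imprinted genes, 7 marker lists and the 3 genes most like Grb10. The members and lists were chosen with earlier results of these data known. The promoter test, the naming of member steps among those with 20 or more rows, the contig comparison and the setting that drops rows at 0 in all libraries were added after the data were seen. Alternatives changed the treatment of zeros, the scale, the step and stretch definitions, the extension, the libraries and the replicate block. RefSeq promoters of GRCm38.p6 matched 9 of the 10 members.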

Additional observations from a re-analysis of the deposited data

Results flagged for a closer look

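In 3 of 94 groups of 4 libraries (3.19%), 1 library stood apart from the other 3 by Dixon's criterion, which chance alone meets in about 1 group in 20. At the Grb10 main start (300 bases at chr11:12037371), NASH replicate 2 was at 10.6% and the other NASH libraries at 0% to 1.11%. In the stretch over the Airn start in Igf2r (12741000), NASH replicate 2 was at 37.8%, with the others from 47.0% to 48.3%. For the Igf2r extended span, ND replicate 2 was at 77.9%, with the others at 76.7%. None of these comparisons passed the test between groups.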

How the results depend on the processing

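For the member spans, 109 of 120 alternative values kept their direction and side of the threshold, for the stretches 184 of 224 and for the named steps 295 of 305. The cause of the changes below was not tested. The count of 1 kb steps called was 0, and became 14 on the logit scale, 1555 with 20 rows, 160 and 95 without zeros whose neighbours have a median of 50 or 25, 1636 without any zero, 1 without rows at 0 in all libraries, and 0 to 4 with a library left out. Extended spans called, 2191, ran from 1090 to 2739 with a library left out, and were 2132 without any zero, then 235 higher and 1897 lower against 1191 and 1000. Near-50% stretches called, 211, ran from 0 to 64 with a library left out, and became 78 without zeros by the 25 rule, 354 without any zero, 83 with a band of 40 to 60, 1888 with 30 rows and 0 with 60 rows. The 16 stretches in the genes became 28 with 30 rows. The Slc38a4 stretch at 97003000 was also lost on the logit scale (adjusted p = 0.0559) and without zeros by the 50 or 25 rule (0.0535 and 0.0834) or rows at 0 in all libraries (0.0519, added after the data were seen).

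Directions that reversed were all of values that had not passed. Without any zero, the span differences became -0.219 for Gnas, -0.00147 for Plagl1 and 0.313 for Zrsr1, and that of the Plagl1 stretch -1.004. Without the extension, the Igf2r span became -0.180. Without zeros by the 50 rule the Gnas stretch at 174327000 became 0.299 and the Plagl1 stretch -0.382, and by the 25 rule the Gnas stretch became 0.664. With a library left out, the ranges were -0.367 to 0.912 for the Gnas span, -0.352 to 1.51 for Plagl1 and -2.26 to 0.119 for Zrsr1. For stretches they were -0.360 to 4.81, -0.484 to 3.87 and -3.71 to 1.73 in Gnas from first to last, -0.611 to 6.83 in Grb10 (12025000), -1.77 to 5.67 in Igf2r (12741000), -5.77 to 0.803 in Impact, -1.57 to 5.41 in Nnat and -2.61 to 3.803 in Plagl1. Without a change of sign they were 0.408 to 1.48 for the Igf2r span, -2.19 to -0.849 for the Impact span, 1.502 to 12.3 for the stretch at the Igf2r promoter and 8.10 to 20.4 for the Impact step at 12974000.

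Same-numbered libraries showed no sign of deviating together (correlations from -0.00397 to 0.00749, against -0.0130 to 0.0128 for other pairs). These correlations cannot show whether equal numbers mark libraries handled together. With the replicate block, 0 steps, 1940 spans and 0 stretches were called, the Grb10 and Slc38a4 spans stayed called (adjusted p = 0.0182 and 0.00188), and the Slc38a4 stretches at 97003000 and 97015000 were not (0.107 and 0.115).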
